A study of Homo sapiens with 3 samples.

Results

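The ZNF genes are human zinc finger genes that carry a numbered ZNF symbol. Members were the genes whose symbol was ZNF followed by digits, with a letter suffix allowed and antisense genes left out, and whose mean level over 3 single-cell libraries was at least 10 CPM (counts of UMIs of the gene, scaled to the same total of UMIs in every library). Of 562 such symbols, 102 met the level, out of 8143 genes of any kind at that level and 58735 features in all. The level itself chose the members, so levels are given below as a description.

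Most ZNF proteins bind DNA through C2H2 zinc fingers, small folds held by a zinc ion that are set side by side along the protein so that each reads a few bases. A large branch of the family also carries a KRAB domain, which recruits the corepressor TRIM28 and with it SETDB1, a histone H3 lysine 9 methyltransferase, and is known for silencing transposable elements. Other ZNF proteins activate promoters, sit in chromatin complexes, or work on RNA, ribosomes or the mitotic spindle.

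The cells were FaDu, an established line from a human squamous cell carcinoma of the hypopharynx, and a line derived from it that is resistant to TPF, a chemotherapy of paclitaxel with cisplatin and 5-fluorouracil. There were 3 libraries, 1 per group, made with 10x 3' version 3.1 chemistry: resistant cells given TPF and cinobufotalin (the TPF plus cinobufotalin library), resistant cells given TPF (the TPF library), and FaDu cells given cinobufotalin (the FaDu library). Cinobufotalin is a bufadienolide, a steroid of toad venom. Cells without any drug were not analysed here. The labels used here state neither doses nor times, nor whether the resistant line was a clone or a pool.

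Between 4862 and 7525 cells per library were kept, with 134802289 to 165847771 UMIs in all and a median of 17867 to 27920.5 UMIs per cell. All 11 squamous epithelial markers were at 5 CPM or more, while fibroblast, immune and endothelial markers were all below 5 CPM and 1 of 4 erythroid markers, HBA1, was above it. Their summed level was 4617, 5834 and 7760 CPM for the squamous list in the TPF plus cinobufotalin, TPF and FaDu libraries. MALAT1, a nuclear long noncoding RNA, made up a median of 0.731%, 0.795% and 0.0892% of the UMIs of a cell in the same libraries. Between 9 and 13 kept barcodes were shared by each pair of libraries, at most 0.212% of a library. With 1 library per group nothing was tested between groups, and line, drug and library cannot be told apart. Every interval is a 95% Clopper-Pearson interval and covers counting error only.

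Of the 102 members, 84 had a promoter window of 300 bases in the RefSeq table of GRCh38.p14, running from 250 bases before the gene start to 50 bases after it. Among them 6 KRAB-type relatives on chromosomes 7 and 19 shared, at window position 227 or 228, the reverse complement of a core sequence read by ETS factors. They are shown because the motif lies at nearly the same place in all 6. All 6 had their lowest level in the FaDu library, as did 79.4% of members and 68.7% of tested genes. Capitals mark the shared motif in the 60 bases of each, on the strand of the gene, ending just before the RefSeq start.
ZNF138: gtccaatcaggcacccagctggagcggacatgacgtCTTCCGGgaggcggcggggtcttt
ZNF430: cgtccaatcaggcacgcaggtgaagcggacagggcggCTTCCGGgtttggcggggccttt
ZNF431: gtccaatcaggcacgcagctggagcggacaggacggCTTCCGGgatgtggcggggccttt
ZNF91: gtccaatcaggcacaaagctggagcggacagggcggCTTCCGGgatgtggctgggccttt
ZNF92: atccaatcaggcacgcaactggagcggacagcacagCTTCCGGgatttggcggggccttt
ZNF680: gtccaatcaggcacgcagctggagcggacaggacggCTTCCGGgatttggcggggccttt

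These stretches lie at chr7:64794368-64794427 for ZNF138, chr19:21020597-21020656 for ZNF430, chr19:21141980-21142039 for ZNF431, chr19:23395472-23395531 on the minus strand for ZNF91, chr7:65373795-65373854 for ZNF92 and chr7:64563072-64563131 on the minus strand for ZNF680. The 250 bases upstream of the start were 79.3% to 87.8% identical between any pair of the 6. The shared motif at those window positions was present in 6 of 84 members, 7.14%, against 0.219% of tested genes with a window and 0.128% of all 27305 windows. The set was picked after the sequences and levels had been seen. Position 227 was itself taken as the one most common among members, and the tested genes include the 6. The higher share among members was thus set in advance and is only a description.

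The 6 genes stood closer to each other in the resistant libraries than in the FaDu library. ZNF138 had 26.4 CPM in the TPF plus cinobufotalin library, 29.3 CPM in the TPF library and 20.7 CPM in the FaDu library. ZNF92 had 23.7, 27.0 and 8.76 CPM in the same order. ZNF138 was the least apart of the set and ZNF92 the most apart, with log2 ratios of the TPF library over the FaDu library of 0.50 and 1.62. The other 4 lay between them, at 0.75 for ZNF431, 0.77 for ZNF430, 1.05 for ZNF680 and 1.29 for ZNF91, and none of the 6 was 1.5-fold apart between the resistant libraries.

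Anywhere in the window and on either strand, CCGGAAG, the shared motif read from the other strand, was found in 34 of the 84 members, 40.5%, against 21.9% of tested genes and 10.7% of all windows. ACTACAA, a part of the motif read by ZNF143, was found in 6 members, 7.14%, against 4.00% of tested genes and 2.95% of all windows. Neither motif contains the other. Median log2 ratios of the TPF library over the FaDu library were 0.67 for the 34 members with CCGGAAG and 0.78 for the 50 without it. A match says only that the letters are present in the window.

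The levels of the members were uneven. ZNF706, a short protein with 1 C2H2 finger that in mouse embryonic stem cells favours the exit from self-renewal, alone held 24.8% of all member UMIs. It had 938 CPM in the TPF plus cinobufotalin library, 890 CPM in the TPF library and 1027 CPM in the FaDu library, so that the FaDu library was the highest. The mean level was 10 to 30 CPM for 73 members, 30 to 100 CPM for 25 and over 100 CPM for 4, with a median of 21.5 CPM. The 4 were ZNF706, ZNF593, ZNF292 and ZNF511. These are UMIs of transcript 3' ends and were not divided by length, and how well each 3' end was captured was not measured.

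At the limit of 10 CPM, ZNF611, ZNF318 and ZNF618 lay just inside, at a mean of 10.4, 10.1 and 10.0 CPM, and ZNF282, ZNF280D and ZNF335 lay just outside, at 9.82, 9.77 and 9.76 CPM. Of the symbols that were not members, 42 had no UMI, 152 had a mean under 1 CPM and 266 had a mean of 1 to 10 CPM. Because the mean over libraries decided, 26 members were under 10 CPM in a library, 25 of them in the FaDu library. Of those 25, 18 are among the members counted below as higher in the TPF library than in the FaDu library. For the TPF plus cinobufotalin library over the FaDu library, 17 are. Genes that entered through high levels in resistant cells had to differ. Members on chromosome 19, which holds clusters of ZNF genes, numbered 28, or 27.5%, against 5.46% of tested genes, and 101 of the 102 were protein-coding, the other being the pseudogene ZNF271P.

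Summed over all 102, ZNF genes took 0.421% of UMIs in the TPF plus cinobufotalin library (0.420 to 0.422), 0.426% in the TPF library (0.425 to 0.427) and 0.323% in the FaDu library (0.322 to 0.324). Without ZNF706 the sums were 3272, 3366 and 2202 CPM. The median share per cell was 0.42%, 0.43% and 0.32% of UMIs, and 80% of cells lay between 0.293% and 0.578%, 0.313% and 0.572%, and 0.251% and 0.430%. On total UMIs the resistant libraries were thus close in summed level and the FaDu library was lower, while single cells of the 3 libraries overlapped. TMM scaling, an alternative added after seeing the data, rescales the library totals by factors computed over all features. With it the order turned, to 0.377%, 0.369% and 0.415%, with FaDu highest. It did not even out the tested genes. Their median log2 ratio over the FaDu library became -0.20 for TPF and -0.21 for TPF plus cinobufotalin. Of the 102 members, 81 had their lowest level in the FaDu library, 79.4%, against 68.7% of tested genes, and with TMM scaling 48 had, 47.1%, against 32.5%. Among the 81 are the 25 members under 10 CPM in the FaDu library, which entered through the resistant libraries. On total UMIs the TPF plus cinobufotalin library was lowest for 15 members and the TPF library for 6.

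**Figure D1:**
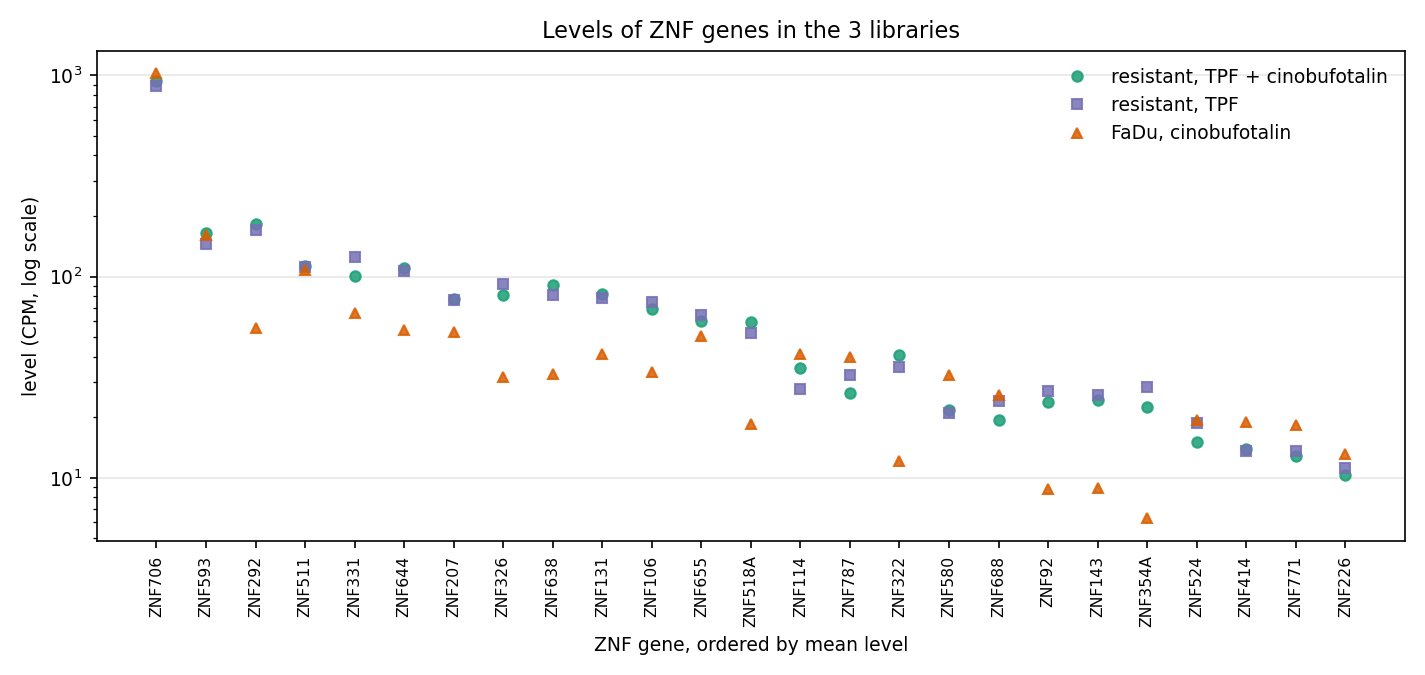
Level in CPM on a log axis (vertical) of 25 ZNF genes ordered by mean level (horizontal), 1 point per library. ZNF292, ZNF326, ZNF518A, ZNF322, ZNF92, ZNF143 and ZNF354A have their FaDu point well below the resistant points, while ZNF593 and ZNF511 have 3 points close together and ZNF580, ZNF414 and ZNF771 have the FaDu point on top.

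The first comparison set resistant cells given TPF and cinobufotalin against resistant cells given TPF. The ZNF genes differed little. None of the 102 was at least 1.5-fold higher and none at least 1.5-fold lower in the TPF plus cinobufotalin library, beside 0.0737% and 0.172% of tested genes. At 2-fold both counts were also 0, beside 0.0123% higher and 0.0123% lower, and relative to the median gene they were 0 as well, beside 0.111% higher and 0.0982% lower. The median log2 ratio was -0.07 for members and -0.06 for all tested genes, with members from -0.55 to 0.33. Counting intervals lay above 0 for 25 members and below 0 for 50. For 101 members the whole interval lay within 1.5-fold, so counting error was small beside that limit. The intervals do not cover the gap in UMIs per cell, with medians of 17867 in the TPF plus cinobufotalin library and 27920.5 in the TPF library.

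ZNF165, a gene otherwise known for expression in testis and tumours, was the furthest below, with 22.3 CPM in the TPF plus cinobufotalin library and 32.7 CPM in the TPF library. Its log2 ratio was -0.55 (-0.62 to -0.48). In the FaDu library it had 24.1 CPM, so the TPF library stood alone at the high end. Exons of ZNF165 overlap AL121944.1 on the opposite strand, which had a mean of 23.6 CPM, and no source used here states whether the counting used strand. Behind it came ZNF32 at -0.37, ZNF219 at -0.36, ZNF768 at -0.35, ZNF444 at -0.34 and ZNF354A at -0.33.

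ZNF114 was the furthest above, with 34.9 CPM in the TPF plus cinobufotalin library and 27.8 CPM in the TPF library, a log2 ratio of 0.33 (0.27 to 0.39). It had 41.0 CPM in the FaDu library, so that the library of resistant cells with cinobufotalin lay between the other libraries. ZNF593 and ZNF322 followed at 0.20 each, then ZNF518A and ZNF431 at 0.19 and ZNF689 at 0.18. ZNF593, whose yeast counterpart Bud20 accompanies the large ribosomal subunit out of the nucleus, had 165 CPM in the TPF plus cinobufotalin library, 144 CPM in the TPF library and 161 CPM in the FaDu library.

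The second comparison set the TPF library against the FaDu library, where both the cell line and the drug differ. At least 1.5-fold higher in the TPF library were 51 of 102 members, beside 35% of tested genes, and 1 member, ZNF580, was at least 1.5-fold lower, beside 2.01% of tested genes. At 2-fold the count was 24 higher, beside 13.2% of tested genes, and 0 lower, beside 0.344%. The median log2 ratio was 0.58 for members and 0.37 for all tested genes, and members ran from -0.64 to 2.17. Since the median gene was itself above 0, the members were also read relative to it: 26 were then at least 1.5-fold higher, beside 14.9% of tested genes, and 6 at least 1.5-fold lower, beside 11.3%. TMM scaling lowers every log2 ratio of this pair by 0.57, which turns the median of all genes to -0.20 and leaves that of the members at 0.01. Under it 17 members were at least 1.5-fold higher, beside 8.46% of tested genes, and 12 at least 1.5-fold lower, beside 21.5%. Ratios between 0 and 0.57 on total UMIs are below 0 with that scaling.

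**Figure D2:**
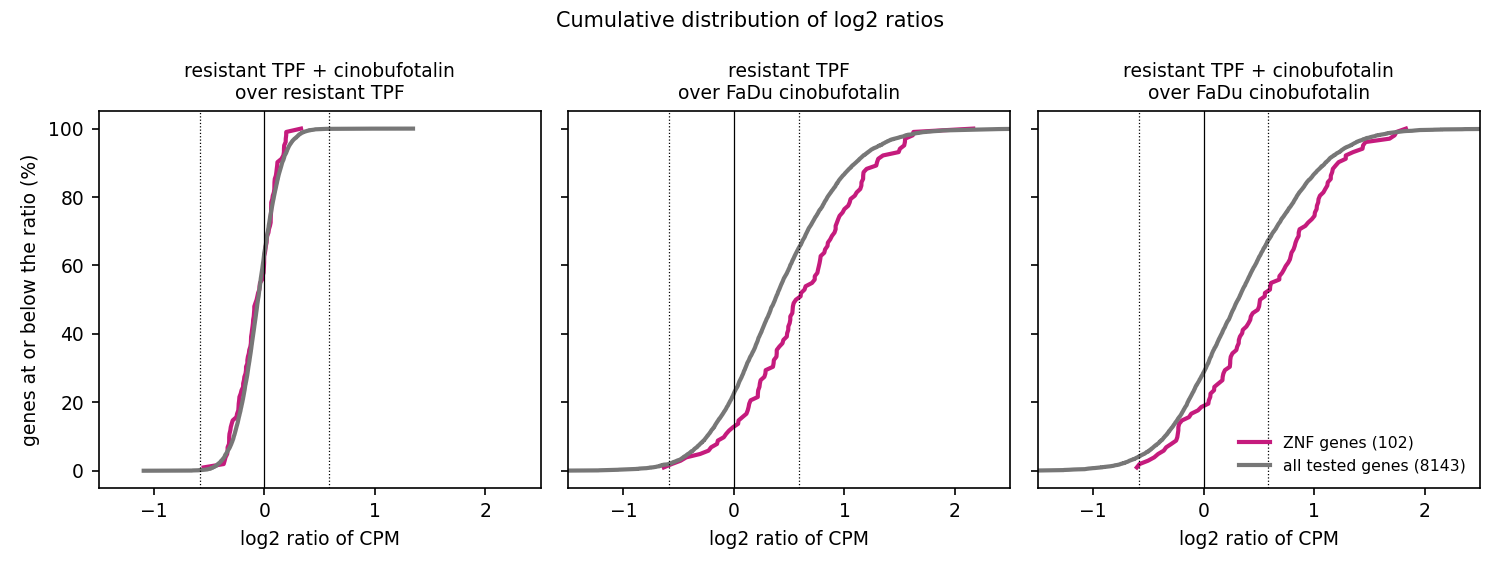
Cumulative share of genes in percent (vertical) at or below a log2 ratio of CPM (horizontal) for the 102 ZNF genes and the 8143 tested genes, 1 panel per pair of libraries. Dotted lines mark 1.5-fold, and tested genes beyond the axis are not drawn. The curves run together in the resistant pair, with medians of -0.07 and -0.06, and the ZNF curve lies to the right in both pairs with FaDu, with medians of 0.58 and 0.53 against 0.37 and 0.31.

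ZNF354A, a KRAB protein first described in rat kidney as Kid-1 and located at chr5:178711592-178730702 (GRCh38, GENCODE 29) on the minus strand, was the furthest above. It had 22.4 CPM in the TPF plus cinobufotalin library, 28.2 CPM in the TPF library and 6.28 CPM in the FaDu library, from 3015, 3810 and 1042 UMIs. The log2 ratio of the TPF library over the FaDu library was 2.17 (2.07 to 2.27), or 4.49-fold, and 1.79 relative to the median gene. Both resistant libraries were thus well above the FaDu library, and the library without cinobufotalin was the higher of them.

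ZNF292, a gene mutated in several tumour types, had 183 CPM in the TPF plus cinobufotalin library, 170 CPM in the TPF library and 55.2 CPM in the FaDu library. Its log2 ratio of TPF over FaDu was 1.62 (1.58 to 1.65). ZNF92, one of the promoter set above, was level with it at 1.62 (1.54 to 1.71). Then came ZNF322 at 1.55, ZNF326 at 1.55, which belongs to the DBIRD complex that links elongation by RNA polymerase II to splicing, and ZNF143, an activator that binds many promoters, at 1.54. ZNF143 had 24.3 CPM in the TPF plus cinobufotalin library, 25.9 CPM in the TPF library and 8.91 CPM in the FaDu library, so its resistant values were close and both far above FaDu.

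Few members were lower in the TPF library. ZNF580 had 21.8 CPM in the TPF plus cinobufotalin library, 21.0 CPM in the TPF library and 32.6 CPM in the FaDu library. The log2 ratio of TPF over FaDu was -0.64 (-0.70 to -0.57). ZNF580 overlaps the exons of its neighbour ZNF581 on the same strand, so reads of this pair may be split between them. The next were ZNF114 at -0.56 (-0.62 to -0.51), ZNF414 at -0.48, ZNF771 at -0.43, ZNF787 at -0.31 and ZNF226 at -0.23. Of these, ZNF771 overlaps exons of DCTPP1 on the opposite strand, a gene with a mean of 217 CPM, and ZNF114 overlaps ZNF114-AS1, at 3.61 CPM. Among all 102 members 23 overlapped exons of another gene at 1 CPM or more, 19 of them on the opposite strand.

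The third comparison, the TPF plus cinobufotalin library over the FaDu library, shares the FaDu library with the second and its line with the TPF library, so the values are given side by side and are not further support. At least 1.5-fold higher were 49 members, 48.0%, beside 32.6% of tested genes. Of the 49, 17 were under 10 CPM in the FaDu library and became members through the resistant libraries. At least 1.5-fold lower was 1 member, ZNF787, beside 4.14%. At 2-fold 27 were higher, beside 13.3% of tested genes, and 0 lower, beside 0.761%. The median log2 ratio was 0.53 for members and 0.31 for all tested genes, with members from -0.60 to 1.83. Relative to the median gene 30 were higher, beside 17.5% of tested genes, and 8 lower, beside 13.3%. TMM scaling lowers each ratio of this pair by 0.52 and gave 18 members higher, beside 9.96% of tested genes, and 17 lower, beside 25%.

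ZNF354A again stood at the top with 1.83 (1.73 to 1.93). ZNF322 followed at 1.75 (1.67 to 1.82), with 40.8 CPM in the TPF plus cinobufotalin library, 35.6 CPM in the TPF library and 12.2 CPM in the FaDu library. ZNF292 was at 1.73, ZNF518A at 1.68, ZNF638 at 1.47 and ZNF143 at 1.44. Against the same FaDu cells, ZNF518A and ZNF638 were at 1.49 and 1.30 in the TPF library. At the other end ZNF787 was at -0.60 (-0.66 to -0.54), with 26.3 CPM in the TPF plus cinobufotalin library, 32.3 CPM in the TPF library and 39.9 CPM in the FaDu library. ZNF580 at -0.58, ZNF771 at -0.50, ZNF414 at -0.45, ZNF688 at -0.41 and ZNF524 at -0.36 came next.

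By role, the lists below hold few members each. Of all tested genes, 35% and 32.6% were 1.5-fold higher than in the FaDu library. These shares vary with level, and none matched to a list was computed. At 10 to 30 CPM they were 42.7% and 40.1%, at 30 to 100 CPM 35.7% and 33.1%, and above 100 CPM 14.2% and 13.1%. None of the members in the role lists was 1.5-fold apart between the resistant libraries. Among proteins that work on RNA, ribosomes or the spindle, 9 of 14 were members, with 4 at least 1.5-fold higher in the TPF library than in the FaDu library and a median log2 ratio of 0.53. ZNF326 had 80.8 CPM in the TPF plus cinobufotalin library, 92.4 CPM in the TPF library and 31.6 CPM in the FaDu library. ZNF638, a nuclear protein that with the HUSH complex silences unintegrated retroviral DNA, had 90.7, 80.6 and 32.8 CPM in that order. ZNF106, an RNA-binding protein, was at 1.15 for TPF over FaDu, and ZNF207, a spindle and kinetochore protein known as BuGZ, at 0.53. ZNF593 went the other way at -0.15 (-0.18 to -0.13).

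Among promoter-binding activators, 6 of 10 were members and 3 were at least 1.5-fold higher in the TPF library than in the FaDu library, with a median of 0.73. ZNF148, which binds GC-rich promoters, had 64.7 CPM in the TPF plus cinobufotalin library, 64.3 CPM in the TPF library and 29.1 CPM in the FaDu library. Its log2 ratio of TPF over FaDu was 1.14 (1.09 to 1.19). ZNF131, a zinc finger protein with a BTB domain, was at 0.92, ZNF281, a repressor and activator known from stem cells, at 0.54, and ZNF24 at 0.51. All 4 were near equal between the resistant libraries, from -0.12 to 0.06.

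Of 12 members of chromatin complexes, 7 reached the level and 5 were at least 1.5-fold higher in the TPF library than in the FaDu library, with a median of 0.87. ZNF644, a partner of the methyltransferases EHMT1 and EHMT2, had 110 CPM in the TPF plus cinobufotalin library, 107 CPM in the TPF library and 54.0 CPM in the FaDu library. ZNF217, an oncogene product of breast cancer that binds the CoREST complex, had 34.8, 35.2 and 19.1 CPM in that order. ZNF462, with 33 finger patterns the protein with the most, was at 0.85 for TPF over FaDu, and ZNF592, a partner of ZMYND8, at 0.36.

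Of the 6 genes listed for retrotransposon and imprint control, 3 were members. ZNF91, which silences SVA elements, had 24.1 CPM in the TPF plus cinobufotalin library, 25.7 CPM in the TPF library and 10.5 CPM in the FaDu library. ZNF93, which binds LINE-1 elements, had 14.2, 16.9 and 6.63 CPM in that order. ZNF274, which binds the 3' ends of ZNF genes themselves, was nearer to equal, with 18.6, 23.3 and 15.8 CPM. The log2 ratios of TPF over FaDu were 1.29, 1.35 and 0.56 for the 3 genes. The other 3, ZNF37A, ZNF445 and ZNF10, were below the level.

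ZNF750, a driver of epidermal differentiation, had 23.0 CPM in the TPF plus cinobufotalin library, 28.4 CPM in the TPF library and 18.3 CPM in the FaDu library. Its log2 ratio was 0.64 (0.57 to 0.71) for TPF over FaDu and -0.31 (-0.38 to -0.24) between the resistant libraries. Of the 11 squamous markers, TP63, CDH1, DSP and EPCAM were also above 0 for TPF over FaDu, at 0.33, 0.73, 0.50 and 0.27. The other 7 were below 0, from -0.98 for KRT5 to -0.18 for KRT18. The summed list, with 4617, 5834 and 7760 CPM, was lower in the TPF plus cinobufotalin library than in the TPF library, as ZNF750 was. The list was also lower in the TPF library than in the FaDu library, where ZNF750 went the other way. In the 6 ranges of MALAT1 share described further on, low to high, ZNF750 was at 0.91, 0.38, 0.42, -0.02, 0.43 and 0.62 for TPF over FaDu. ZNF750 lies within a gene of the opposite strand, TBCD, at a mean of 25.1 CPM.

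Members were also counted by the architecture of their proteins. Beside them, 35% of all tested genes were 1.5-fold higher in the TPF library than in the FaDu library. That share was 42.7% for tested genes at 10 to 30 CPM. From the shortest to the longest class of genomic span described further on, it went from 11.3% to 64.7%. A KRAB pattern was found in 35 of the 101 proteins, 16 of them from chromosome 19, and the median number of finger patterns was 7. Of the 35, 22 were at least 1.5-fold higher in the TPF library than in the FaDu library, with a median log2 ratio of 0.78, and of the 66 without the pattern 29 were, with a median of 0.52. The pattern can miss KRAB domains, so the 66 may include proteins that carry one. Proteins with 7 or more fingers numbered 55, of which 37 were higher with a median of 0.82, and those with 1 to 6 fingers numbered 41, of which 11 were higher with a median of 0.48. The 5 without a finger pattern were ZNF720, ZNF503, ZNF330, ZNF750 and ZNF738, of which 3 were higher with a median of 0.61. In this pair the ratio thus did not follow the number of fingers throughout. For TPF plus cinobufotalin over FaDu 36 of the 55, 13 of the 41 and 0 of the 5 were higher, beside 32.6% of tested genes. Their medians were 0.80, 0.25 and 0.33, so there the counts followed the number of fingers and the medians did not throughout. Genes with a KRAB pattern were also longer, with a median genomic span of 39.4 kb against 24.2 kb for the other members, and the parts of span and of protein type cannot be told apart in these counts.

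Genomic span, from the first to the last base of a gene with introns, moved with the ratio. Of members under 10 kb (15), the median log2 ratio of TPF over FaDu was 0.12, beside 0.06 for tested genes of that span. From 10 to 30 kb (35 members) it was 0.39 beside 0.22, from 30 to 100 kb (42 members) 0.77 beside 0.50, and at 100 kb or more (10 members) 0.95 beside 0.77. Long ZNF genes were thus further above FaDu than short ones, as were long genes of any kind. In this pair the members lay above the tested genes in each of the 4 span classes. For TPF plus cinobufotalin over FaDu they lay slightly below in the shortest class, at -0.020 beside -0.013. In the longer classes they lay above, at 0.24 beside 0.12, 0.81 beside 0.46 and 1.02 beside 0.80. Over the 102 members Pearson's r between log10 span and the ratio of TPF over FaDu was 0.51 and Spearman's rho 0.54. Over the 8143 tested genes they were 0.45 and 0.48. The points share both libraries, so these are descriptions.

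**Figure D3:**
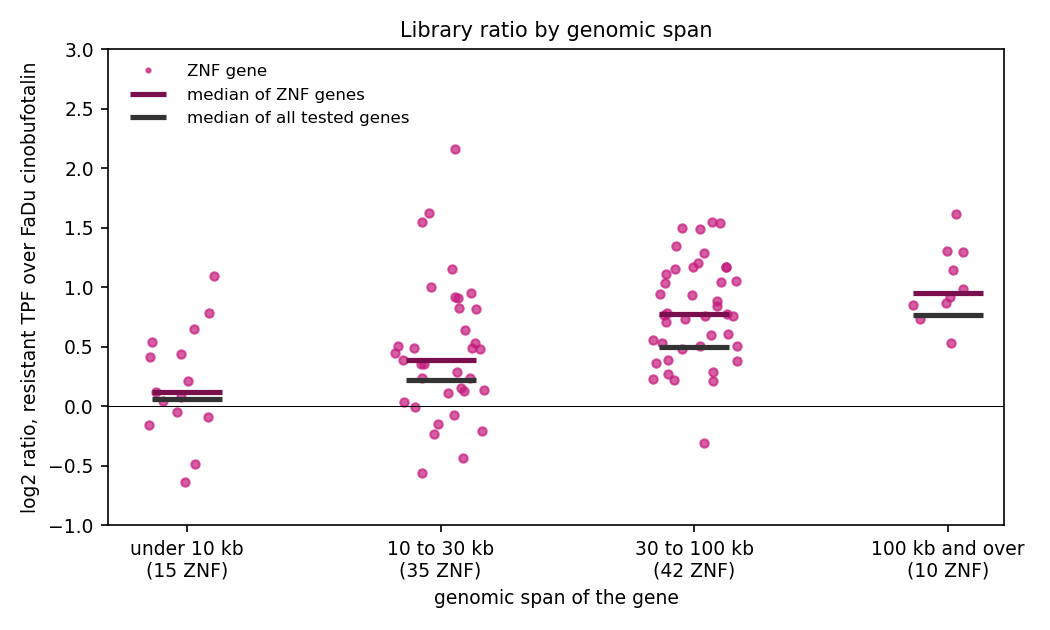
Log2 ratio of the TPF library over the FaDu library (vertical) for each of the 102 ZNF genes, in 4 classes of genomic span (horizontal), with the median of the ZNF genes and of all tested genes as bars. The medians climb with span, from 0.12 to 0.95 for ZNF genes and from 0.06 to 0.77 for all tested genes.

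By level, members at 10 to 30 CPM had a median of 0.53 beside 0.49 for tested genes of that level, and members at 30 to 100 CPM a median of 0.73 beside 0.39. In these classes 34 of 73 and 16 of 25 members were at least 1.5-fold higher in the TPF library than in the FaDu library. Of tested genes of those levels, 42.7% and 35.7% were. The 4 above 100 CPM had a median of -0.06 beside 0.07. The gap to other genes was thus widest in the middle class, which holds ZNF331, ZNF644, ZNF207, ZNF326, ZNF638, ZNF131, ZNF106 and ZNF655 among others. On chromosome 19 the 28 members had a median of 0.34 beside 0.05 for tested genes there, and elsewhere the 74 members had 0.73 beside 0.39.

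The corepressors that KRAB proteins recruit were all above the level, 20 of 20. In the TPF library 10 were at least 1.5-fold higher than in the FaDu library, beside 35% of tested genes. None was that much lower, beside 2.01%. The median log2 ratio was 0.58, beside 0.37 for all tested genes. For TPF plus cinobufotalin over FaDu 8 were higher, beside 32.6% of tested genes, and none lower, beside 4.14%. TRIM28, the scaffold itself, had 28.8 CPM in the TPF plus cinobufotalin library, 31.3 CPM in the TPF library and 26.7 CPM in the FaDu library. SETDB1 had 16.2, 14.7 and 11.6 CPM in that order. These had small log2 ratios of TPF over FaDu, 0.23 and 0.33, while the SETDB1 partner ATF7IP was at 1.39, the chromatin remodeller SMARCAD1 at 1.36, the HUSH-linked ATPase MORC2 at 1.20, the HUSH subunit TASOR, listed as FAM208A, at 1.01 and EHMT1 at 0.88. CBX1 at 0.73, CHD3 at 0.70, KIAA1551 at 0.68, CBX5 at 0.64 and HDAC2 at 0.59 made up the 10.

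Other families with C2H2 fingers were fewer at this level. Of 123 such symbols 34 reached the level. Of the 34, 15 were at least 1.5-fold higher in the TPF library than in the FaDu library, beside 35% of tested genes. The median was 0.51, beside 0.37 for all tested genes. The 12 ZBTB genes had a median of 0.77, the 6 SP genes 0.50, the 10 KLF genes 0.40 and the 5 ZFP genes 0.31. No ZSCAN gene and 1 ZKSCAN gene reached the level.

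Within each library, cells were ranked by the share of MALAT1 in their UMIs, and the highest tertile was set against the lowest, with MALAT1 left out of the totals. ZNF genes as a group were higher where MALAT1 was high, as was the median tested gene. Of the members 43, 24 and 44 were at least 1.5-fold higher in the highest tertile in the TPF plus cinobufotalin, TPF and FaDu libraries, beside 34.1%, 21.1% and 31.2% of tested genes. At least 1.5-fold lower were 1, 2 and 0 members, beside 3.78%, 2.08% and 0.246%. The median log2 ratio of members was 0.51, 0.32 and 0.52, beside 0.39, 0.20 and 0.32 for all tested genes. Members at 10 to 30 CPM had medians of 0.54, 0.34 and 0.54, beside 0.52, 0.33 and 0.46 for tested genes of that level. At 30 to 100 CPM the medians were 0.41, 0.20 and 0.45, beside 0.38, 0.19 and 0.32. The 4 members above 100 CPM had -0.43, -0.36 and -0.20, beside -0.0034, -0.11 and -0.07.

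In all 3 libraries 81 members were above 0, 79.4%, against 63.9% of tested genes, and 22 were at least 1.5-fold higher, beside 18.3% of tested genes. Below 0 in all 3 were 12 members, against 17.2% of tested genes. The summed level in the highest and lowest tertile was 4672 and 3741 CPM in the TPF plus cinobufotalin library, 4643 and 3970 CPM in the TPF library, and 3558 and 2998 CPM in the FaDu library. The tertiles also differed in other respects: the median mitochondrial share was 4.21% and 2.98%, 4.60% and 3.09%, and 5.04% and 1.53% in the highest and lowest tertile, and the median UMIs per cell were 15878 and 18312, 24635 and 30562, and 22003 and 29346. NEAT1, another nuclear RNA, was at 2942 and 775 CPM, 2682 and 660 CPM, and 1725 and 203 CPM. In cells with at least 10000 UMIs and 2% to 8% mitochondrial UMIs 21, 20 and 29 members were at least 1.5-fold higher in the highest tertile, beside 18.5%, 15.1% and 19.6% of tested genes. There the medians of members were 0.31, 0.21 and 0.33, beside 0.23, 0.15 and 0.20 for tested genes. The part of depth and mitochondrial share in what remains was not tested.

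ZNF292 varied most with the MALAT1 share. It had 288 CPM in the highest tertile and 89.9 CPM in the lowest in the TPF plus cinobufotalin library, 262 and 100 CPM in the TPF library, and 106 and 24.8 CPM in the FaDu library. The log2 ratios were 1.68 (1.63 to 1.73), 1.39 (1.34 to 1.44) and 2.10 (2.02 to 2.18), against 1.62 and 1.73 for the TPF and the TPF plus cinobufotalin library over the FaDu library. By the mean of the 3 ratios, ZNF638 followed at 1.30, 1.11 and 1.80, then ZNF431 at 1.37, 1.38 and 1.44, ZNF611 at 1.33, 1.02 and 1.69, and ZNF83 at 1.23, 1.15 and 1.33.

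At the low end stood ZNF695, at -0.67, -0.64 and -0.42, with 14.1 CPM in the highest tertile and 22.4 CPM in the lowest in the TPF plus cinobufotalin library. ZNF593 was at -0.58, -0.46 and -0.42 and ZNF511 at -0.52, -0.62 and -0.20. ZNF271P was at -0.36, -0.36 and -0.15, and ZNF706 at -0.34, -0.27 and -0.20. Of the 4 members over 100 CPM, ZNF706, ZNF593 and ZNF511 were thus lower in cells with much MALAT1 in each library, and ZNF292 was higher. ZNF511 overlaps exons of TUBGCP2 on the opposite strand, at 45.1 CPM.

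Because the FaDu library had far less MALAT1, the libraries were also compared in cells of like MALAT1 share, in 6 ranges. From the lowest range, 0% to 0.05%, to the highest, over 2%, the summed ZNF level went up step by step from 3184 to 4901 CPM in the TPF plus cinobufotalin library, from 3585 to 4679 CPM in the TPF library and from 3023 to 3960 CPM in the FaDu library. In each of the 6 ranges the FaDu library was the lowest on these totals, and TMM scaling was not run within the ranges. At 0.3% to 1%, which held 3073, 1913 and 1140 cells of the 3 libraries, the sums were 4348, 4287 and 3505 CPM.

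**Figure D4:**
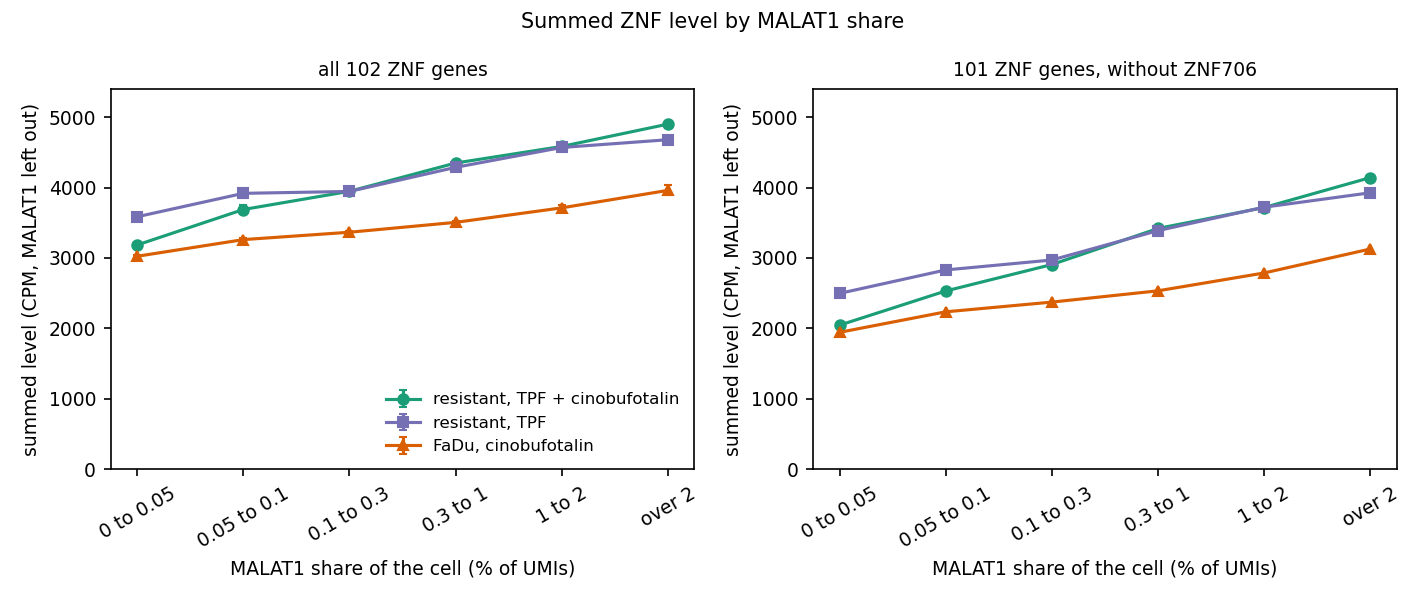
Summed level in CPM with MALAT1 left out (vertical) of all 102 ZNF genes and of the 101 without ZNF706, in cells grouped by their MALAT1 share of UMIs (horizontal), 1 line per library with 95% counting intervals in the panel of all 102 genes. Every line climbs with MALAT1, from 3023 to 3960 in FaDu cells, and the FaDu line is the lowest in each range on totals without TMM scaling.

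At matched MALAT1 the median member stayed above the FaDu library, by less, on totals without TMM scaling. Over all cells that scaling lowers the ratios of TPF and of TPF plus cinobufotalin over FaDu by 0.57 and 0.52. Each median of members within a range was smaller than that. For TPF over FaDu the median log2 ratio of members over the 6 ranges, low to high, was 0.38, 0.30, 0.32, 0.37, 0.34 and 0.29, against 0.58 over all cells, and that of tested genes was 0.20, 0.16, 0.17, 0.23, 0.22 and 0.15. At least 1.5-fold higher were 36, 24, 28, 38, 36 and 24 members, beside 21.1%, 18.3%, 16.8%, 20.2%, 18.7% and 12.1% of tested genes. At least 1.5-fold lower were 1, 2, 2, 2, 2 and 2 members, beside 4.49%, 6.18%, 4.49%, 2.65%, 2.22% and 1.68%. For TPF plus cinobufotalin over FaDu the counts were 12, 16, 27, 38, 35 and 26, beside 10.3%, 12.2%, 15.1%, 21.3%, 19.8% and 16.6%, and the medians 0.16, 0.17, 0.24, 0.31, 0.27 and 0.35. At least 1.5-fold lower there were 10, 6, 2, 1, 3 and 2 members, beside 18.1%, 13.3%, 6.48%, 4.15%, 3.71% and 3.17%. In the lowest range the share of members that were lower was thus below that of tested genes.

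Between the resistant libraries, 22 and 12 members were at least 1.5-fold lower in the TPF plus cinobufotalin library in the 2 lowest ranges, beside 20.8% and 9.06% of tested genes, and 1, 0, 0 and 1 in the higher ranges, beside 0.786%, 0.147%, 0.16% and 0.368%. At least 1.5-fold higher were 1, 3, 0, 0, 0 and 1 members over the 6 ranges, beside 1.35%, 1.11%, 0.614%, 0.184%, 0.111% and 0.503%. In cells at 0% to 0.05% MALAT1 the median was -0.38 for members and -0.33 for tested genes. Those cells numbered 923 in the TPF plus cinobufotalin library and 402 in the TPF library, with a median of 12385 and 24746 UMIs. The part of that depth gap was not tested.

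In every one of the 6 ranges, 12 members were at least 1.5-fold higher in the TPF library than in the FaDu library, beside 5.45% of tested genes: ZNF326, ZNF106, ZNF770, ZNF518A, ZNF322, ZNF91, ZNF92, ZNF143, ZNF354A, ZNF800, ZNF93 and ZNF195. Of those named, ZNF354A, ZNF92, ZNF93 and ZNF143, for example, were under 10 CPM in the FaDu library. They became members through the resistant libraries, so their being higher there was partly set by the level that chose the members. No member was lower throughout, beside 0.553%. ZNF354A was at 1.64, 2.10, 1.94, 2.15, 1.91 and 1.40 over the ranges, against 2.17 over all cells, so the lowest and highest ranges lay further below it than the 4 between. ZNF292 was at 1.11, 0.93, 0.43, 0.74, 0.76 and 0.47, well below its 1.62 over all cells. ZNF207 was at -0.03, -0.31, -0.37, -0.0014, 0.20 and 0.02, against 0.53 over all cells, so its sign depended on the cells compared. ZNF770, ZNF800 and ZNF195 are named from this count after their values were seen.

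For TPF plus cinobufotalin over FaDu, ZNF770, ZNF518A, ZNF322 and ZNF143 were at least 1.5-fold higher in every range, beside 3.12% of tested genes, and ZNF787 was at least 1.5-fold lower in every range, beside 1.14%. ZNF354A was at 0.39 in the lowest range and between 1.31 and 1.93 in the others. ZNF143 was steady, from 0.84 to 1.18. Counting any size, 59 members were above 0 in every range and 7 below 0 in every range for TPF over FaDu, beside 45% and 13.3% of tested genes. For TPF plus cinobufotalin over FaDu these counts were 48 and 10, beside 31.5% and 17.1%. For TPF plus cinobufotalin over TPF they were 6 and 31, beside 7.15% and 27.7%, and no member was 1.5-fold higher or lower throughout, beside 0.0614% and 0.0123%.

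The 2 readings of a gene, by library and by MALAT1 share, could be compared without shared cells by taking the MALAT1 tertiles from the library outside the pair. Over the 102 members the ratio of TPF over FaDu had a Pearson r of 0.62 and a Spearman rho of 0.64 with the ratio by tertiles in the TPF plus cinobufotalin library, and over 8143 tested genes 0.56 and 0.57. The ratio of TPF plus cinobufotalin over FaDu had 0.49 and 0.51 with the tertiles in the TPF library, and over tested genes 0.46 and 0.45. For the resistant pair and the tertiles in the FaDu library the values were 0.31 and 0.32, and 0.17 and 0.15. Genes are not independent replicates and share libraries and depth, so these are descriptions. The order of members by MALAT1 tertiles was alike in the libraries, with r from 0.83 to 0.95 over the 3 pairs of libraries, beside 0.87 to 0.95 for tested genes.

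**Figure D5:**
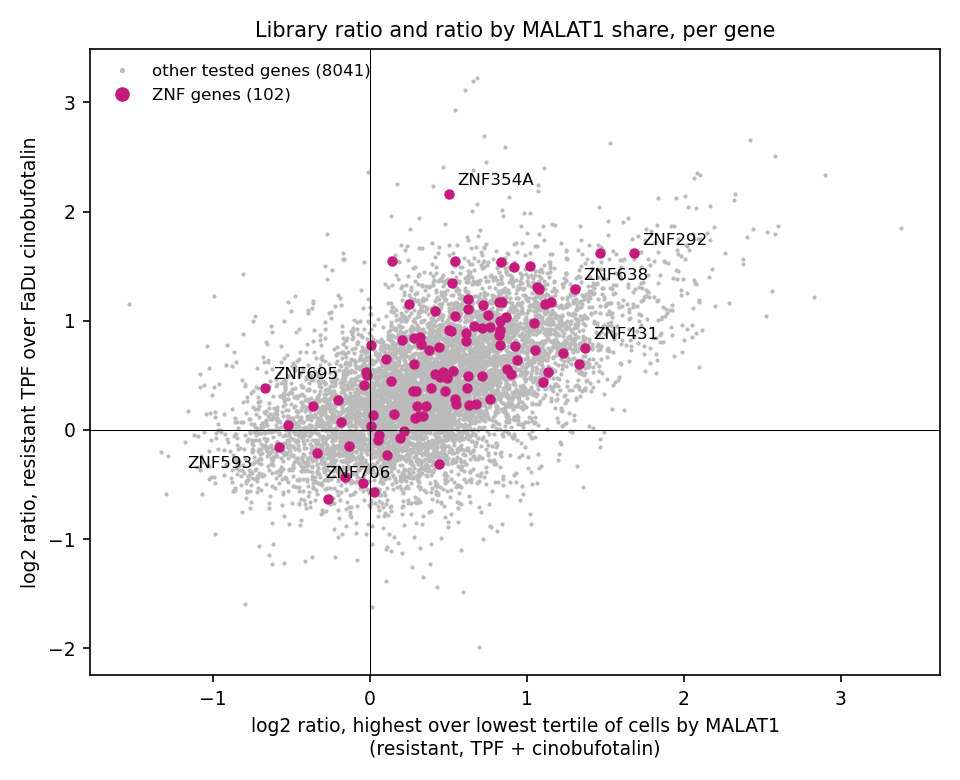
Log2 ratio of the TPF library over the FaDu library (vertical) against the log2 ratio of the highest over the lowest tertile of cells by MALAT1 share in the TPF plus cinobufotalin library (horizontal), 1 point per gene. The ZNF genes run from ZNF593 and ZNF706 near 0 at the lower left to ZNF292 at the upper right, and ZNF354A stands above the others at 2.17 with a MALAT1 ratio of 0.50.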

How the data were processed

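Each library was deposited as a matrix of raw UMI counts, made by the authors with Cell Ranger 7.0 and hg38, per the submitters' processing notes. No source used here states the annotation or whether introns and strand were used. Barcodes were kept with 1000 UMIs or more, 500 genes or more and mitochondrial UMIs of at most 20%. Doublets were not called or removed, and free RNA was not corrected for. Sums of UMIs over the cells of a library gave its CPM values, and log2 ratios were given with 95% Clopper-Pearson intervals (Python 3.11.15, numpy 2.4.6, scipy 1.17.1, pandas 2.3.3), a calculation tested on simulated data. TMM factors came from edgeR 4.0.16. All 58735 features were found in GENCODE 29, which gave spans and protein sequences for 101 members. Fingers were counted as C, 2 to 4 residues, C, 12 residues, H, 3 to 5 residues, H. KRAB was found by a pattern that was loosened after it missed known KRAB proteins and may still miss some. Promoter windows were RefSeq's.

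Members and lists were chosen with earlier results of these data known. Named genes are the 6 highest and 6 lowest members of each pair, the 12 highest by level, up to 4 of each role list, the 5 highest and 5 lowest by MALAT1 tertiles, and those at the limit of 10 CPM.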

Additional observations from a re-analysis of the deposited data

Results flagged for a closer look

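ZNF22, a zinc finger gene with a mean of 30.7 CPM, had ratios of opposite sign in the libraries when the highest tertile of cells by MALAT1 share was set against the lowest. The log2 ratio was 0.29 (0.19 to 0.40) in the FaDu library, against -0.04 (-0.15 to 0.07) in the TPF plus cinobufotalin library and -0.24 (-0.35 to -0.14) in the TPF library. Its level in the highest and lowest tertile was 28.4 and 23.1 CPM in the FaDu library, 30.7 and 31.5 CPM in the TPF plus cinobufotalin library, and 30.1 and 35.7 CPM in the TPF library. The opposite signs drew attention to it, and the difference was not tested.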

How the results depend on the processing

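The limits are 1 library per group, counting intervals that leave out variation between cultures, and 25 members under 10 CPM in the FaDu library. No paired analysis was possible because there is 1 library per group and the labels give no replicate numbers. Of 219 values recomputed for counts, medians and sums, 128 stayed close, 90 moved and 1 reversed, and of 432 ratios of named genes 219 stayed close, 211 moved and 2 reversed. TMM scaling shifts every ratio of a pair by one constant. The other causes were not tested.

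Summed levels (TPF plus cinobufotalin, TPF, FaDu) were 0.418%, 0.420% and 0.321% over all barcodes, 0.429%, 0.428% and 0.332% at 10000 UMIs or more and 2% to 8% mitochondrial UMIs, 0.519%, 0.521% and 0.417% without mitochondrial and ribosomal protein genes, 0.425%, 0.430% and 0.324% without MALAT1 and NEAT1, 0.430%, 0.437% and 0.334% with equal weight per cell, and 0.429%, 0.435% and 0.333% with cells thinned to 5000 UMIs. FaDu stayed lowest in each of these. TMM scaling, added after seeing the data, gave 0.377%, 0.369% and 0.415%, with FaDu highest.

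For TPF plus cinobufotalin over TPF, members higher were 1, 3 and 1 at 0% to 0.05%, 0.05% to 0.1% and over 2% MALAT1, members lower 22, 12, 1 and 1 at 0% to 0.05%, 0.05% to 0.1%, 0.1% to 0.3% and over 2%, and the median was -0.38, -0.15 and, reversed, 0.013 in the first, second and last range.

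For TPF over FaDu, TMM scaling gave 17 higher and 12 lower, beside 8.46% and 21.5% of tested genes, and a median of 0.013. A mean of at least 5 CPM gave 102 of 184 higher with a median of 0.68, and at least 20 CPM 32 of 54 with a median of 0.73. The share of all genes at those levels was not computed, so these counts cannot be set against other genes. The 2-fold limit gave 24 higher and 0 lower. Members higher were 24, 28 and 24 at 0.05% to 0.1%, 0.1% to 0.3% and over 2% MALAT1. Lower were 2 in each of the 5 ranges from 0.05%, without mitochondrial and ribosomal protein genes, with cells thinned and at 2% to 8% mitochondrial UMIs, where the median was 0.50. Medians over the 6 ranges were 0.38, 0.30, 0.32, 0.37, 0.34 and 0.29. At 0.3% to 1% MALAT1 ZNF611 reversed to -0.053 and ZNF750 to -0.024. In the other 5 ranges ZNF750 was above 0, from 0.38 to 0.91, and ZNF611 ran from -0.36 to 0.064.

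For TPF plus cinobufotalin over FaDu, TMM scaling gave 18 higher and 17 lower, beside 9.96% and 25% of tested genes, and a median of 0.012. At least 5 CPM gave 95 higher and 2 lower, at least 20 CPM 30 higher with a median of 0.71, and 2-fold 27 higher and 0 lower. The share of all genes at 5 CPM or at 20 CPM was not computed for this pair either. Higher were 12, 16, 27 and 26 at 0% to 0.05%, 0.05% to 0.1%, 0.1% to 0.3% and over 2% MALAT1. Lower were 10, 6, 2, 3 and 2 in those ranges with 1% to 2% before the last, and 2 over all barcodes, without mitochondrial and ribosomal protein genes, with equal weight and with cells thinned. Medians over the 6 ranges were 0.16, 0.17, 0.24, 0.31, 0.27 and 0.35.

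By MALAT1 tertiles at 10000 UMIs or more and 2% to 8% mitochondrial UMIs, 21 members were higher in the TPF plus cinobufotalin library and 29 in the FaDu library, beside 18.5% and 19.6% of tested genes, with medians of 0.31 and 0.33. Quartiles in place of tertiles gave 0.66 in the TPF plus cinobufotalin library.

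Thinning left out 571, 205 and 144 cells. Of the 48 named genes, which include the extremes of each pair, 22 were at least 1.5-fold higher or lower in TPF over FaDu. At 0.3% to 1% MALAT1 17 of the 22 remained so, and 43 of the 48 kept their sign. With TMM scaling 11 of the 22 remained so, and 32 of the 48 kept their sign.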
